A study of Mus musculus with 12 samples.

Results

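The genes described here encode families of DNA-binding transcription regulators, together with the immediate early genes, whose transcripts appear within minutes of a stimulus. They were chosen by symbol, with earlier results of these data known. A gene belonged to the set if its single annotated symbol was a Sox, Hox, Klf, Fox, Gata, Egr, Fos, Jun, Atf, nuclear receptor (Nr), Nfat, Nfi, Cebp, Irx, Id, Hey, Per or Ets name. Pax, Hnf, Lhx and Hes names were also searched and gave no gene. Gata3, Atf4 and Nfat5 were left out, although their symbols fit. The search found 61 of the 6786 measured genes, on 79 of 15600 clones. Of the 61, 48 had 1 clone and 13 had 2 or 3. The names Cebpzos and Nfatc2ip fit the pattern, but Nfatc2ip encodes an NFAT-interacting protein and Cebpzos is named for the strand opposite Cebpz, and neither is a transcription factor of the family it is listed under.

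The groups were 3 water-restricted mice and 3 control mice. RNA of the renal medulla, the inner kidney where urine is concentrated, was amplified and each water-restricted mouse was hybridised against each control mouse on 2-colour arrays. The 9 pairs of mice gave 12 arrays, because 3 pairs were run in both dye orientations. The sources used here give no strain, sex, age or length of restriction. The deposited value is a log2 ratio of both dyes per spot, so the arrays give differences between mice and no level of a gene on its own.

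Transcription factors of these families bind DNA and raise or lower the transcription of other genes. Fos, Jun and Egr genes are induced by growth factors and stress, Per and Nr1d genes belong to the circadian clock, Id proteins bind basic helix-loop-helix factors and block them, and Hox, Irx, Gata and Sox genes pattern tissues and maintain cell identity. Kruppel-like factors (Klf), forkhead factors (Fox) and nuclear receptors act in metabolism, differentiation and hormone responses. In kidney, the glucocorticoid receptor Nr3c1 mediates responses to corticosteroids.

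The direction of every value rests on the labels of the dyes. Alexa Fluor 546 and 647 were the dyes, and arrays that carried water-restricted RNA in 647 had their sign turned. If 546 is the numerator of the deposited ratios, a positive difference stands for more transcript in water-restricted mice. If 647 is, it stands for less, and the sources used here do not settle the numerator. Whether deposited values had already been turned is not stated there either, and was not tested. Dye-swapped arrays of the same mice correlated across all clones at -0.136, 0.13 and -0.133 before turning. Among the 61 genes, both arrays of a swapped pair had the same sign after turning for 36, 36 and 30 genes. Their turned values correlated at -0.07, 0.34 and 0.40 between the arrays of these pairs. On the swapped pair of water-restricted mouse 3 and control mouse 2, Egr1 had -1.69 and -1.92 after turning. Nr3c1 had 0.49 and -0.49 there.

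A level on the log2 scale was fitted for each mouse from its 4 arrays, with the 6 levels of a gene summing to 0, and the mean of the water-restricted mice minus that of the control mice is called the difference. None of the 61 genes passed the threshold of 0.05 for the adjusted p of limma, and neither did any of the 6786 genes (0% of genes). The adjusted p of the 61 ran from 0.553 to 0.998. At an unadjusted p under 0.05 there were 5 of the 61 genes, against 4.97% of all genes. None of the 61 was positive at that p (3.21% of all genes were). All 5 (Sox4, Klf11, Klf7, Per3 and Id3) were negative, and 1.75% of all genes were negative at that p. Of all 61 differences, 28 were positive and 33 negative, with a median of -0.03, beside 50.7% positive and a median of 0.0034 over all genes. The median SE of a difference was 0.19, for the 61 genes as for all genes.

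The 3 levels of water-restricted mice lay entirely above or entirely below those of the control mice in 11 of the 61 genes, against 9.8% of all genes. Fos, Atf6 and Foxk2 were on the positive side (5.94% of all genes were). Sox4, Klf11, Klf7, Id3, Per3, Nr1d2, Foxp1 and Foxn3 were on the negative side (3.86% of all genes were). If the values had already been turned when deposited, 5 of the 61 genes would be separated and 3 would have an unadjusted p under 0.05. The shares of all genes under that reading were not computed. In bulk tissue, fewer cells of a type and less RNA per cell cannot be told apart, for these genes as for the others.

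**Figure D1:**
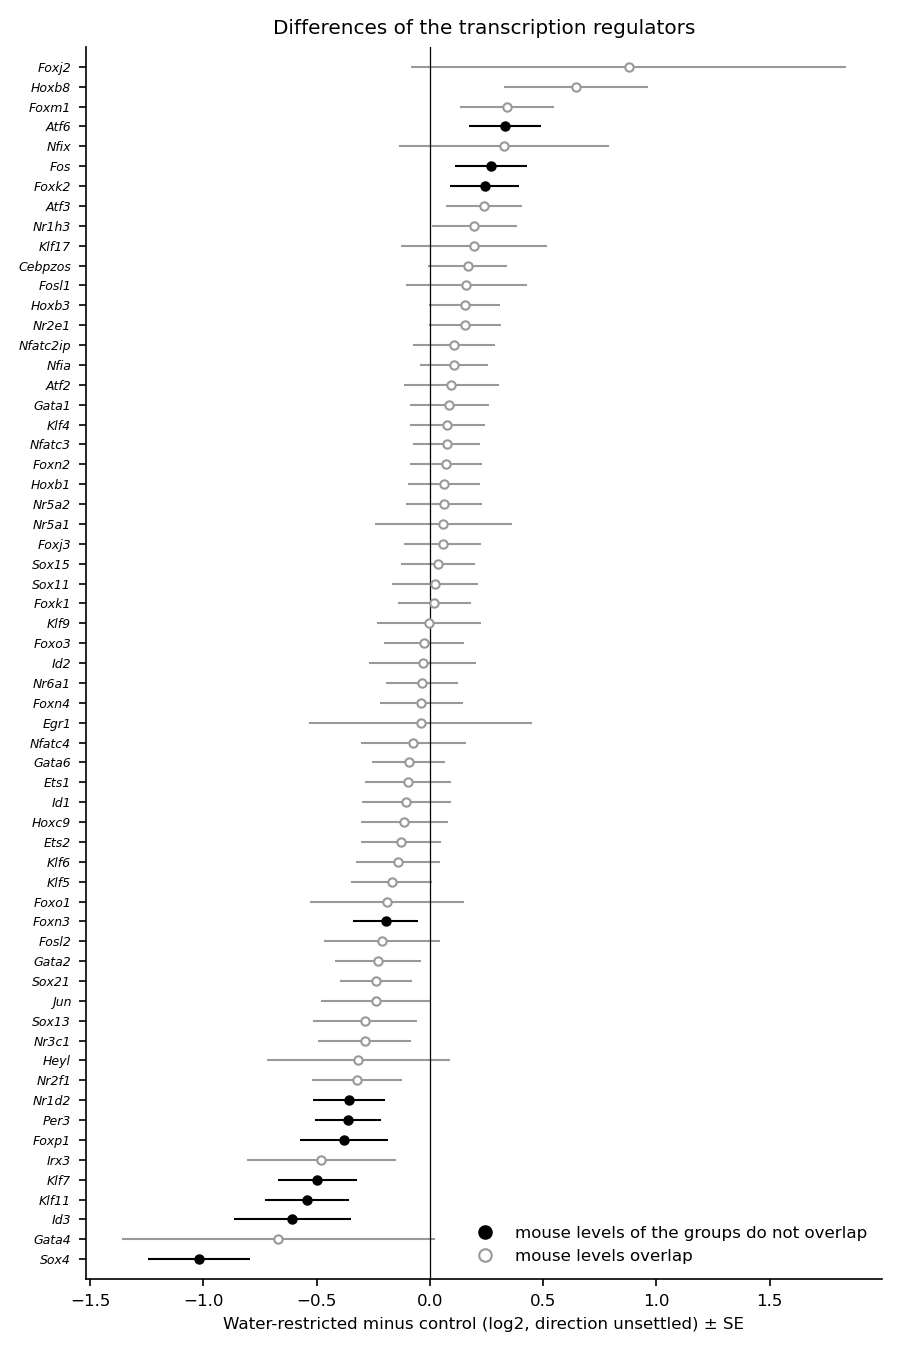
Differences between water-restricted and control mice for the 61 genes on the log2 scale (horizontal axis), with bars of 1 SE, and filled points mark the 11 genes whose 3 water-restricted and 3 control levels do not overlap. Sox4 lies lowest, at -1.02, and Foxj2 highest, at 0.88, with a wide bar.

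Sox4, a high-mobility-group factor of kidney and lung development, had the smallest p of the set. Its levels were -0.10, -0.76 and -0.67 in water-restricted mice 1, 2 and 3, against 0.51, 0.78 and 0.24 in control mice 1, 2 and 3. All control levels lay above all water-restricted levels. The difference was -1.02 (SE 0.22, 3 mice in each group, adjusted p = 0.553 by limma). Sox4 was the 1 gene of the 61 with a single sign on all 12 arrays, as were 2.05% of all genes, and its array values ran from -2.31 to -0.11. The difference was -0.88 without the array of water-restricted mouse 2 and control mouse 2, whose value was the lowest. Read as already turned, the difference of Sox4 would be -0.34. With random mouse effects, a limma fit to the 12 arrays with 1 variance ratio for all genes, its adjusted p was 0.0416. With arrays as replicates, which counts the arrays of a mouse as independent, the adjusted p of Sox4 was 0.00122. Over the other alternatives it ran from 0.165 to 0.9999.

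The upstream sequence of Sox4 is shown because this gene had the smallest p. It is taken from RefSeq (GRCm38.p6, chr13:28953700-28953949, minus strand) and ends at the base before the annotated start. Capitals mark the nuclear receptor half-site AGGTCA, found on either strand.

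Sox4: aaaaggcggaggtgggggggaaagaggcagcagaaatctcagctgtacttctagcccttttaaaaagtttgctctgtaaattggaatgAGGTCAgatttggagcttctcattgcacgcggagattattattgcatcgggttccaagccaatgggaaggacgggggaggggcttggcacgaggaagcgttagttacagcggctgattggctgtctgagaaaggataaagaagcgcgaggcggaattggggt

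The motif was present in 14% of the 32851 upstream windows of the same length, and no weight is placed on its presence in Sox4. Upstream windows were found for 45 of the 61 genes.

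The other Sox genes had differences nearer 0. Sox11, Sox13, Sox15 and Sox21 ran from -0.29 to 0.04, and Sox13 had -0.29 (SE 0.23) with array values from -0.96 to 1.14. Of the 5 Sox genes 3 were negative, with a median of -0.24.

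Among the Kruppel-like factors Klf11 and Klf7 stood lowest. Klf11 is a repressor in the transforming growth factor beta response. Its levels were -0.51, -0.08 and -0.23 in water-restricted mice, against 0.31, 0.03 and 0.47 in control mice. The groups did not overlap, with water-restricted mouse 2 and control mouse 2 closest to each other. The difference was -0.54 (SE 0.18, adjusted p = 0.771). Klf7, a factor of neuron and fat cell differentiation, had -0.32, -0.20 and -0.23 in water-restricted mice and -0.06, 0.40 and 0.40 in control mice, a difference of -0.50 (SE 0.17, adjusted p = 0.834). The 2 clones of Klf7 gave -0.42 and -0.58, both on the same side. Duplicate spots of these clones correlated at 0.918 and 0.843 over the 12 arrays, against a median of 0.555 over the 79 clones.

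Of the 7 Kruppel-like factors, 5 were negative and the median was -0.14. Klf5 and Klf6, expressed in epithelia, had -0.17 and -0.14, Klf4 had 0.08, Klf17 0.19 and Klf9, a glucocorticoid target, -0.0039. With water-restricted RNA in Alexa Fluor 546, Klf5 and Klf6 had 0.34 and 0.18, and with it in 647 they had -0.71 and -0.54. In the same order Klf4 had -0.02 and 0.27, Klf17 -0.21 and 0.49, and Klf9 0.0060 and -0.025. The sign of Klf4 and Klf9 thus turned at values near 0. On the 647 arrays Klf17 had 2.49 with water-restricted mouse 1 and control mouse 2, and from -0.19 to 0.30 on the others. Klf11 and Klf7 were negative in both orientations. The 2 clones of Klf4 disagreed in sign, at 0.30 and -0.14. No Kruppel-like factor passed the threshold.

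Id3 had the lowest difference of the Id genes, and Id1 and Id2 lay nearer 0. Id3 levels were -0.31, -0.15 and -0.46 in water-restricted mice, against -0.08, 0.09 and 0.90 in control mice. The groups did not overlap, and control mouse 3 stood highest. The difference was -0.61 (SE 0.26, adjusted p = 0.961), and it was -0.31 without control mouse 3 and -0.87 leaving out the array of water-restricted mouse 2 and control mouse 2. Id1 had -0.10 (SE 0.20) and Id2 -0.03 (SE 0.24), both with overlapping levels. The 2 clones of Id2 disagreed in sign, at 0.09 and -0.16. Of 9 measured genes for partners of Id proteins and related basic helix-loop-helix factors (20 listed), 3 were positive and 6 negative, from -0.22 for Tcf3 to 0.27 for Tfe3, with a median of -0.03 and none at an unadjusted p under 0.05. The hypoxia factor Hif1a had -0.20 (SE 0.22).

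**Figure D2:**
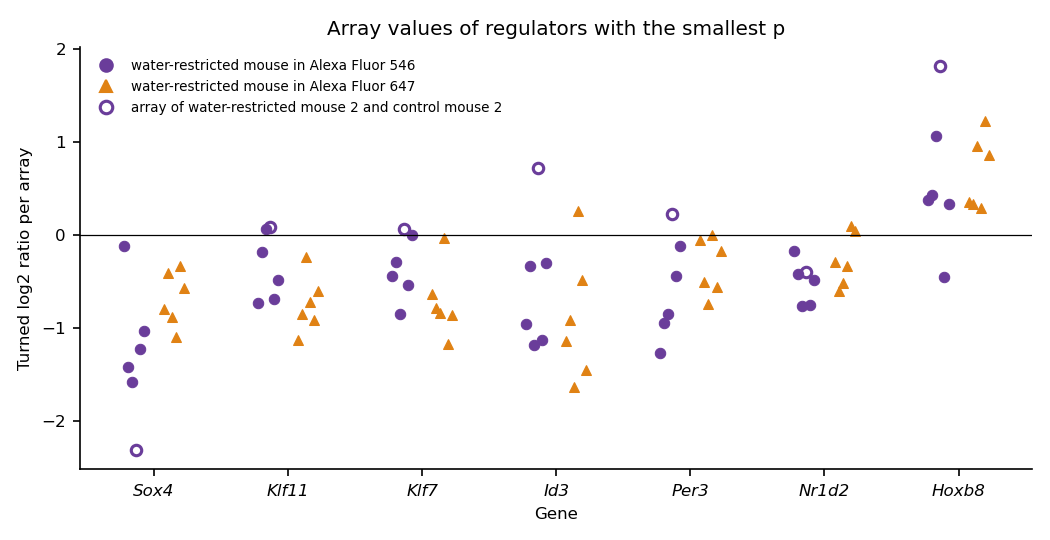
Turned log2 ratios on each of the 12 arrays (points) for 7 genes, by the dye of the water-restricted mouse, where the open circle is the array of water-restricted mouse 2 and control mouse 2. Sox4 is below 0 on every array, and each of the other 6 genes has 1 or 2 arrays on the other side of 0.

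Both clock genes of the set were negative. Per3, a period protein of the negative limb, had levels of -0.27, -0.04 and -0.23 in water-restricted mice, against 0.10, 0.20 and 0.24 in control mice. Nr1d2, the repressor REV-ERB beta, had -0.03, -0.11 and -0.40 in water-restricted mice, against 0.26, 0.14 and 0.14 in control mice. In both genes every water-restricted level lay below every control level. The differences were -0.36 for Per3 (SE 0.15, adjusted p = 0.939) and -0.36 for Nr1d2 (SE 0.16, adjusted p = 0.996). Without the array of water-restricted mouse 2 and control mouse 2 Per3 had -0.54 and Nr1d2 -0.36. Read as already turned, Per3 would have -0.05 and Nr1d2 -0.16.

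A list of the circadian clock held 24 other genes, of which 12 were measured, 6 on each side, with a median of 0.01. Of these 12, 2 had an unadjusted p under 0.05, against 4.97% of all genes. This list too was chosen with earlier results known, so the count is no test of clock genes. Usp2, a deubiquitinase of clock proteins, had a difference of 0.58 (SE 0.17), with 0.18, 0.18 and 0.50 in water-restricted mice and -0.25, -0.46 and -0.16 in control mice. Cry1, a cryptochrome repressor, had 0.37 (SE 0.15), with 0.18, 0.15 and 0.23 in water-restricted mice and -0.31, -0.23 and -0.01 in control mice. In these genes the groups did not overlap, on the side opposite to Per3 and Nr1d2. Arntl, the activator that Nr1d2 is known to repress, had 0.42 (SE 0.33) with overlapping levels, and its partner Clock had 0.06. No clock gene passed the threshold after adjustment (Usp2 adjusted p = 0.771, Cry1 0.939). The sources used here give no time of day for tissue collection, and its part in these values was not tested.

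The sequences upstream of Per3 (chr4:151044666-151044915, minus strand) and Nr1d2 (chr14:18239107-18239356, minus strand) are shown because these 2 clock genes of the set were separated to the same side. Both come from RefSeq (GRCm38.p6) and end before the annotated start. Capitals mark the motifs searched on both strands, which were the E-box CACGTG, the D-box TTATGTAA, the nuclear receptor half-site AGGTCA and the cAMP response element TGACGTCA. No 2 matches overlapped.

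Per3: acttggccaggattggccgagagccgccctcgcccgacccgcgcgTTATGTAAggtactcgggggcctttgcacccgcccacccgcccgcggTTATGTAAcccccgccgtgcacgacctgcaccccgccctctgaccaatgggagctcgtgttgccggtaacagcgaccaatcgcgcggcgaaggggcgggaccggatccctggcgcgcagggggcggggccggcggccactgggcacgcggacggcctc

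Nr1d2: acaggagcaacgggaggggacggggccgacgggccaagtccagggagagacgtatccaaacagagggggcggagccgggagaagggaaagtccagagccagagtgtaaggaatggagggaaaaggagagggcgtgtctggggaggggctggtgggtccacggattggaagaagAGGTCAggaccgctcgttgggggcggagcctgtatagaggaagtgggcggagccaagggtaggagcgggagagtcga

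Per3 held 2 copies of the D-box, the element bound by the clock outputs Dbp, Tef and Hlf, beginning 205 and 158 bases before the start. Nr1d2 held 1 half-site, beginning 77 bases before it. A D-box of these letters was present in 0.819% of all windows, the half-site in 14%, the E-box in 6.02% and the cAMP response element in 1.55%. Of the windows of the 61 genes, 1 of 56 held a D-box, that of Per3, and 8 of 56 held a half-site.

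**Figure D3:**
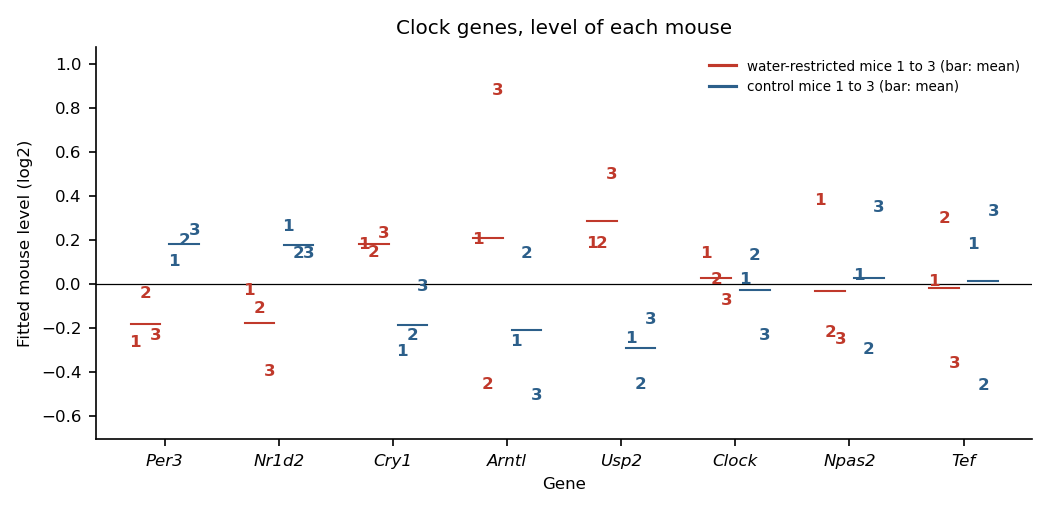
Fitted log2 level of each mouse (numbers 1 to 3) for clock genes, with water-restricted mice in red, control mice in blue and bars at the group means. Per3 and Nr1d2 lie below, and Cry1 and Usp2 above, the control mice in every water-restricted mouse, while Arntl, Clock, Npas2 and Tef overlap.

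The immediate early genes of the AP-1 complex, in which Fos and Jun proteins pair, lay on both sides of 0. Fos levels were 0.36, 0.05 and -0.0042 in water-restricted mice, against -0.07, -0.15 and -0.19 in control mice. The groups did not overlap, and the lowest water-restricted level was close to the highest control level. Fos had a difference of 0.27 (SE 0.16, adjusted p = 0.996), and of 0.16 without water-restricted mouse 1. Fosl1 had 0.16 (SE 0.27) and Fosl2 -0.21 (SE 0.26), with overlapping groups. The sign of both turned in part of the data. Fosl1 had -0.13 without water-restricted mouse 1, and Fosl2 had 0.29 with water-restricted RNA in Alexa Fluor 546 and -0.72 with it in 647. Jun, the partner of Fos, had -0.27, 0.28 and -0.37 in water-restricted mice and -0.24, 0.47 and 0.13 in control mice, a difference of -0.24 (SE 0.24). It was -0.07 without control mouse 2 and -0.44 without water-restricted mouse 2.

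All 3 Atf genes had positive differences in the fit to the 12 arrays as turned. Atf2 and Atf6 were positive on 8 of the arrays and Atf3 on 9. The difference of Atf2 was -0.12 without water-restricted mouse 1, and that of Atf6 would be -0.23 if the values had already been turned. Atf6, a membrane-bound sensor of the unfolded protein response, had 0.29, 0.21 and -0.01 in water-restricted mice, against -0.06, -0.32 and -0.11 in control mice. The groups did not overlap, and the difference was 0.33 (SE 0.16, adjusted p = 0.996), but it was 0.08 with water-restricted RNA in Alexa Fluor 546 and 0.56 on the others. Atf3, a stress-induced repressor, had 0.24 (SE 0.17) and Atf2 0.09 (SE 0.21). Duplicate spots correlated over the arrays at 0.123 for Atf2, 0.224 for Atf3 and 0.683 for Atf6. Of 9 measured genes on a list of 27 AP-1 and CREB partners, 3 were positive and 6 negative (median -0.03). The small Maf protein Mafg was the 1 gene among them with an unadjusted p under 0.05 (4.97% of all genes), at 0.59 (SE 0.23). Xbp1, another factor of the unfolded protein response, had 0.27 (SE 0.16).

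Egr1, a zinc-finger factor induced by growth factors, differed between mice of the same group. Its levels were 0.08, 0.12 and -0.26 in water-restricted mice and -0.82, 1.34 and -0.46 in control mice 1, 2 and 3. Control mouse 2 stood far above the other 5 mice and control mouse 1 lowest. On the 4 arrays with control mouse 2 the values were -1.69, -1.92, -1.61 and -0.67, and on the 8 other arrays they ran from 0.06 to 1.18. The group difference was -0.04 (SE 0.49, adjusted p = 0.996). In limma's F-test between mice of one group, which sets mice against the error between arrays, Egr1 passed (F = 37.9, adjusted p = 0.00696), as did 0.206% of all genes. It was the 1 gene of the 61 to do so, and it also passed without water-restricted mouse 2. Egr1 did not pass when any other mouse was left out, and in those fits none of the 6786 genes passed. Without control mouse 2 its F was 1.78 (adjusted p = 0.582), and without each of the other 4 mice F ran from 19.2 to 39.9 with adjusted p from 0.186 to 0.429.

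Among the other early genes, Jun also had its highest level in control mouse 2, but Fos and Fosl2 had -0.15 and -0.27 there, and Atf3 had 0.09. Of 40 other immediate early genes listed, 20 were measured, 10 on each side, with a median of -0.05. At an unadjusted p under 0.05 there were 5, against 4.97% of all genes. The list was chosen with earlier results of these data known, so this count is no test of early genes. Cxcl1, a chemokine, had 1.49 (SE 0.32), Ier3 0.61 (SE 0.18) and Arc, a cytoskeletal protein known from neurons, 0.52 (SE 0.16). Sgk1, an early corticosteroid-induced kinase, had 0.59 and Btg2, an antiproliferative factor, had -0.51. None passed after adjustment (smallest adjusted p = 0.553, for Cxcl1).

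**Figure D4:**
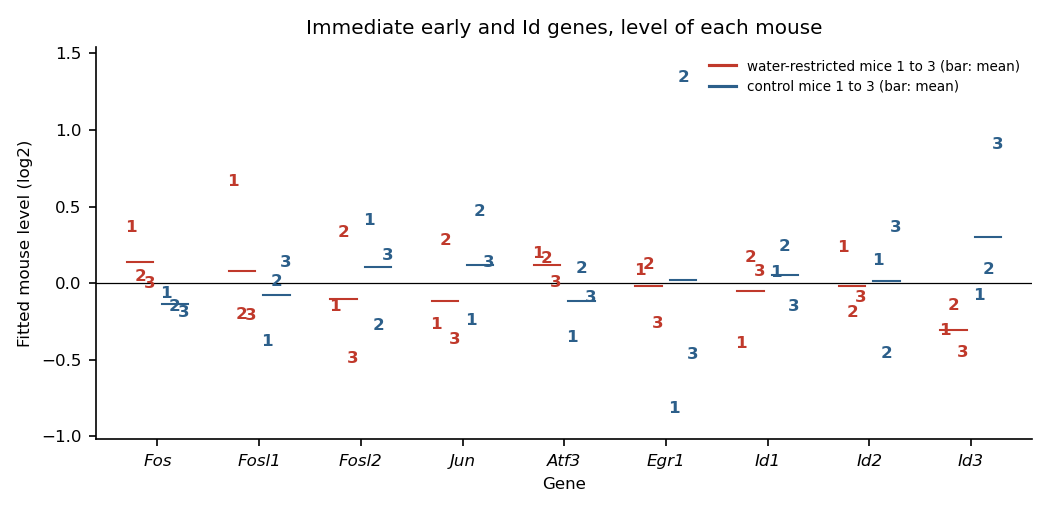
Fitted log2 level of each mouse (numbers 1 to 3) for immediate early and Id genes, with water-restricted mice in red, control mice in blue and bars at the group means. Egr1 in control mouse 2, at 1.34, is the highest value, and the 3 water-restricted mice lie between -0.26 and 0.12 for Egr1.

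Forkhead genes, the largest family with 11 members, were split between the sides, with 6 positive and 5 negative and a median of 0.02. Foxp1, a repressor of many epithelial and blood lineages, had -0.42, -0.01 and -0.14 in water-restricted mice and 0.06, 0.50 and 0.01 in control mice, without overlap, and a difference of -0.38 (SE 0.19), or -0.22 without control mouse 2. Foxn3, from 3 clones that were all negative (-0.25, -0.27 and -0.06), had -0.19 (SE 0.14) and also did not overlap. Foxk2 was separated on the positive side at 0.24 (SE 0.15), but its 2 clones gave 0.48 and 0.0031.

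Foxm1, a factor of dividing cells, had 0.34 (SE 0.21). The insulin-regulated factors Foxo1 and Foxo3 had -0.19 (SE 0.34) and -0.03 (SE 0.17). Foxj3, Foxk1, Foxn2 and Foxn4 ran from -0.04 (Foxn4) to 0.07 (Foxn2). All 7 of these genes overlapped between groups.

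Foxj2 had the highest difference of the 61 genes, 0.88, with the widest SE (0.96). On the array of water-restricted mouse 2 and control mouse 2 its value was 8.55, and on the other 11 arrays it lay between -0.42 and 0.21. Without that array the difference was -0.06. Gata4 (-0.67, SE 0.69) and Nfix (0.33, SE 0.46) also had their farthest value on it, with values of -6.73 and 3.86 there and differences of 0.08 and -0.33 without it. That array had an SD over all spots of 1.21, against 0.515 to 0.764 on the other 11, and over the 61 genes its SD was 1.65, against 0.368 to 0.751.

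**Figure D5:**
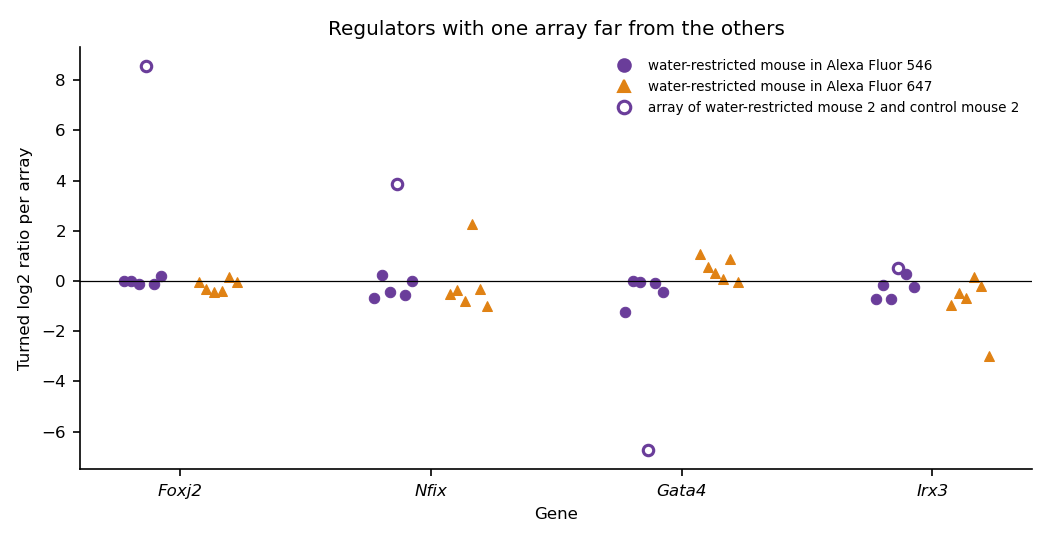
Turned log2 ratios on each of the 12 arrays (points) for 4 genes with an array far from the others, where the open circle is the array of water-restricted mouse 2 and control mouse 2. Foxj2 reaches 8.55 and Gata4 -6.73 on it, and Irx3 has its lowest value, -2.99, on the array of water-restricted mouse 2 and control mouse 3.

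The Gata genes are zinc-finger factors of blood, gut and heart, and Gata2 also acts in kidney. Gata2 had -0.23 (SE 0.19) from 3 clones, all negative, Gata6 -0.09 (SE 0.16) and Gata1, the erythroid factor, 0.09 (SE 0.17). All 3 overlapped between groups.

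Among the Hox genes, which set position along the body axis, Hoxb8 had 0.65 (SE 0.32, unadjusted p = 0.0744, adjusted p = 0.996) and was positive on 11 of 12 arrays. Its levels were 0.32, 0.69 and -0.04 in water-restricted mice, against -0.01, -1.03 and 0.07 in control mice, and they overlapped. Control mice 1 and 3 lay near 0, and control mouse 2 was lowest. Without control mouse 2 the difference was 0.29. Between mice of one group its F was 8.58 (adjusted p = 0.199). Hoxb1, Hoxb3 and Hoxc9 had 0.06, 0.15 and -0.11, each within 1 SE of 0 (0.16, 0.16 and 0.19).

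Irx3, an Iroquois factor of nephron segmentation, had -0.19, -0.69 and 0.16 in water-restricted mice and -0.11, -0.12 and 0.95 in control mice, a difference of -0.48 (SE 0.33). Its levels overlapped, and control mouse 3 was the highest. The difference was -0.13 without control mouse 3 and -0.25 without water-restricted mouse 2. Heyl, a target of Notch signalling, had -0.32 (SE 0.41). Of 13 measured genes of the Notch pathway (31 listed) 3 were positive and 10 negative, with a median of -0.13. None had an unadjusted p under 0.05, and they ran from -0.33 for Ncstn, a subunit of gamma-secretase, to 0.64 for Dtx1, a regulator of Notch. Without the array of water-restricted mouse 2 and control mouse 2 the value of Heyl was -0.06.

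Ets1 and Ets2, factors downstream of growth-factor signalling, were both negative at -0.10 (SE 0.19) and -0.13 (SE 0.18), and their groups overlapped. With water-restricted RNA in Alexa Fluor 546 they had 0.10 and 0.11, and with it in 647 they had -0.30 and -0.41. Read as already turned, they would have 0.24 and 0.25. Of 9 measured genes on a list of 27 Srf and Ets relatives, 6 were positive and 3 negative, from -0.31 for Etv3 to 0.29 for Elf1, with a median of 0.04.

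The calcineurin-regulated factors Nfatc3 and Nfatc4 had 0.07 (SE 0.15) and -0.07 (SE 0.23), and Nfia had 0.11 (SE 0.15). Cebpzos had 0.17 (SE 0.18) and Nfatc2ip 0.11 (SE 0.18).

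The 8 nuclear receptors were split 4 and 4, with a median of 0.01 and a range of -0.36 (Nr1d2) to 0.20 (Nr1h3). Nr1h3, the oxysterol receptor LXR alpha, had 0.20 (SE 0.19) and Nr2f1, an orphan receptor, had -0.32 (SE 0.20). The germ-cell and steroidogenic receptors Nr6a1, Nr5a1 and Nr5a2 had -0.03, 0.06 and 0.06, and Nr2e1, an orphan receptor of neural stem cells, had 0.15. The 3 clones of Nr5a2 ran from -0.29 to 0.63 and disagreed in sign. Of 16 measured receptor partners and coregulators (41 listed) 10 were positive, with a median of 0.10. Esrra, the estrogen-related receptor of mitochondrial genes, had 0.65 (SE 0.27). It was the 1 gene of the 16 at an unadjusted p under 0.05 (4.97% of all genes).

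Nr3c1, the glucocorticoid receptor, had opposite differences in the 2 dye orientations. Its turned values were 0.04, 0.16, 0.49, 0.62, 0.25 and -0.0031 on arrays with water-restricted mice in Alexa Fluor 546, and -0.37, -1.36, -0.49, -1.48, -0.80 and -0.40 on those with them in Alexa Fluor 647. The 2 orientations did not overlap. The group difference was -0.29 (SE 0.20, adjusted p = 0.996) on all 12 arrays, 0.26 on the first 6 and -0.82 on the other 6. Had the deposited values already been turned, the group difference would be 0.56 (adjusted p = 0.868) and that of Nfatc2ip -0.40, and the dye term and water restriction cannot be told apart until the turning is known. The dye term, the shift of each orientation from the middle of both at equal mice, was 0.54 (SE 0.09, limma adjusted p = 0.016). Of the 61 genes 2 passed for the dye term, Nr3c1 and Nfatc2ip (-0.37, SE 0.09, adjusted p = 0.0378), against 6.62% of all genes. It passed with a positive sign in 1 of the 61 genes and 5.11% of all genes, and with a negative sign in 1 of the 61 and 1.5% of all genes.

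Between mice of one group, 6 of the 61 genes had an unadjusted p under 0.05, against 12.8% of all genes, and Egr1 alone passed after adjustment. The genes with the next smallest p were Hoxb8, Id2, Foxo1 and Nfatc4, with F of 8.58, 5.97, 5.5 and 5.06. For Id2 control mouse 2 was lowest at -0.46 and control mouse 3 highest at 0.36. For Foxo1 water-restricted mouse 1 was lowest at -0.66 and control mouse 1 highest at 0.73. On the array that compared both of these mice Foxo1 had -1.90. The other arrays of water-restricted mouse 1 ran from -0.29 to -0.03, and those of control mouse 1 from -0.37 to -0.19. Jun, Atf2 and Klf9 followed, with F from 3.4 to 4.1, and their adjusted p was 0.353 or more.

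Marker lists of nephron segments are given beside these values, and no gene of them passed for water restriction (smallest adjusted p = 0.553, for Fxyd4). In limma's F-test between mice of one group, Gatm (F = 68.3, adjusted p = 0.000713) and Slc22a7 (F = 27.9, adjusted p = 0.0218) passed. Both are proximal tubule genes, and 0.206% of all genes passed. For the dye term Gatm, Slc22a7, Krt18 and Slc4a1 passed, against 6.62% of all genes. The 5 measured of 10 listed proximal tubule genes had 4 positive and 1 negative difference (median 1.05), and mean levels of 0.39, 0.43 and 0.54 in water-restricted mice, against 0.22, -0.92 and -0.66 in control mice. The 4 measured of 12 principal cell genes of the collecting duct were all negative (median -0.73). Their mean levels were -0.33, -0.26 and -0.47 in water-restricted mice and 0.20, 0.35 and 0.50 in control mice. Gata3, left out of the 61 genes, was among these 4. Slc4a1, the 1 measured of 5 intercalated cell genes, had -0.74, while Emcn for endothelium, Lyz2 for leukocytes and Upk1a for urothelium had -0.01, 0.40 and -0.13. None of 4 thick ascending limb genes was among the measured genes, and the water channel Aqp2, which defines the principal cell, was not analysed here. Ratios carry no level, so the labelled tissue was not checked against its markers. The part of segment markers in the values of the 61 genes was not tested.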

How the data were processed

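Amplified renal medulla RNA of 3 water-restricted and 3 control mice was measured on 12 2-colour arrays. The values deposited by the authors are log2 ratios of the 2 dyes, 1 per spot, for 31200 spots. The sources used here do not state the background correction, the normalization or the numerator. Signal over background was not examined, and the number of arrays limits the precision. The 2 spots of a clone were averaged (15600 clones), then the clones of a gene. By the platform annotation 9191 clones had 1 gene, 254 several and 6155 none, and 9085 of the named clones were looked up by gene ID in RefSeq (GRCm38.p6) for current symbols. There were 6786 genes.

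Where water-restricted RNA carried Alexa Fluor 647, ratios were multiplied by -1. Mouse levels were fitted by weighted least squares with a dye term, where arrays of a swapped pair weighed 0.5 each. The levels of 3 against 3 mice were then compared with limma 3.58.1 in R 4.3.3, with Benjamini-Hochberg adjustment over all genes and a threshold of 0.05. An F-test between mice of one group, and a test of the dye term, came from limma fitted to the 12 arrays at equal weights. The procedure was tested on simulated data.

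The genes and lists were chosen with earlier results of these data known. The text names genes at an unadjusted p under 0.05, those with 1 sign on 12 arrays, up to 8 by F-test p, those with a dye effect, all immediate early, clock and Id genes, the most extreme of each other family, all of families with up to 4 genes, and up to 3 genes of each list. Other genes were named after their values were seen. Alternatives changed the turning, scaling, weights, arrays, mice, error model and clones.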

Additional observations from a re-analysis of the deposited data

Results flagged for a closer look

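Within each dye orientation of 6 arrays, the farthest value was compared with the others by its gap over the range, against Dixon's critical value. The 76 groups were those of 38 named genes, some named for an extreme difference that 1 array can set, so the count of 7 beyond it cannot be read against the roughly 1 in 20 that chance gives. On the array of water-restricted mouse 2 and control mouse 2, Foxj2 had 8.55, Gata4 had -6.73 and Nfix had 3.86, where the other 5 arrays ran from -0.13 to 0.21, from -1.24 to -0.02 and from -0.69 to 0.22. Irx3 had -2.99 and Foxo1 had 0.36 on the array of water-restricted mouse 2 and control mouse 3. Ets2 had -0.96 on the array of water-restricted mouse 2 and control mouse 1 that carried water-restricted RNA in Alexa Fluor 647. Nfix had 2.26 on the array of water-restricted mouse 3 and control mouse 1.

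If the values were not already turned, the dye orientations differed for Nr3c1, with a dye term of 0.54, and for Nfatc2ip, with -0.37 (limma adjusted p = 0.016 and 0.0378).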

How the results depend on the processing

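No gene of the 6786 passed for water restriction as reported, and 1 passed with only arrays with water-restricted mice in Alexa Fluor 647, 1 with swapped pairs only, 54 with random mouse effects and 451 with arrays as replicates, a fit that counts the arrays of a mouse as independent. Of the 61 genes, 1 passed with random mouse effects (Sox4) and 7 with arrays as replicates. The 5 genes at an unadjusted p under 0.05 became 3 with values read as already turned, 3 with only the Alexa Fluor 546 arrays, 11 with only the 647 arrays, 11 with swapped pairs only, 16 with arrays as replicates, 1 among genes with 2 or more clones and 1 to 4 when 1 mouse was left out. The 11 separated genes became 5 with values read as already turned, 5 with only the 546 arrays, 3 among genes with 2 or more clones, and 9 to 14 when 1 mouse was left out. The matching shares of all genes were not computed in these settings. The changes in these counts therefore cannot be read as particular to the 61 genes. Read as already turned, Id3 had 0.17, Klf11 had 0.20, Klf7 had 0.21, Sox4 had -0.34 and Per3 had -0.05, and 35 of the 61 genes changed sign. With only the 546 arrays 23 of the 61 changed sign, and with only the 647 arrays 11 did. The cause was not tested.

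Between mice of one group, the 14 genes became 24 with swapped arrays weighing 0.5 (chosen after seeing the data), 6 with no dye term, 50 without the array of water-restricted mouse 2 and control mouse 2, and 0 to 5 when 1 mouse was left out. Of the 61 genes, 1 passed, 0 with no dye term (Egr1 adjusted p = 0.0578) and 0 to 1 when 1 mouse was left out. The dye effect of 449 genes became 769 with swapped arrays weighing 0.5, 1 with swapped pairs only and 0 to 7 when 1 mouse was left out, and its 2 genes of the 61 became 4, 0 and 0. Equal weights, planned as an alternative for both, were the reported fit. With the mouse number as a replicate block, 3 of the 61 genes had an unadjusted p under 0.05, and the share of all genes was not computed. Levels of same-numbered mice, less their group means, correlated at -0.01, -0.54 and -0.11, and those of unlike numbers from -0.497 to 0.497. The levels were fitted together from shared arrays, so these correlations cannot show whether the numbers pair the mice. With 3 mice per group and ratios alone, low signal could not be told from high.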
